A study of Rattus norvegicus with 24 samples.

Results

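Peri-implant bone around poly(lactic-co-glycolic acid) (PLGA) plugs that release Li+ was compared between day 28 and day 7 after surgery in the rat tibia. The comparison uses the 12 arrays of Li+ implants among the 24 of the series, chosen by the implant and the day in their titles: 6 arrays at day 28 (rats 21, 23, 27, 28, 29 and 30) and 6 at day 7 (rats 4, 5, 7, 10, 11 and 15). All animals were male Sprague Dawley rats, and their age is not given in the sources used here. The Li day 28 and Li day 7 groups carried plugs loaded with lithium carbonate for 28 and 7 days, and the Ctrl day 28 and Ctrl day 7 groups, set beside them where stated, carried plugs with sodium carbonate and no lithium in the same rats. The bone was cut out around each drilled site with a trephine burr, so a sample holds new and old bone together with marrow and whatever soft tissue came along. The days hold different animals, and the comparison is therefore unpaired. Each rat also carried a Ctrl implant, so both materials were present in every animal.

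Each sample was measured on its own Affymetrix Rat Gene 2.0 ST array, and values are log2 signals, on which a difference of 1 is a doubling. A signal depends on the probes of a gene and its changes are compared here between arrays. Where a probe set is called bright, this describes its probes and not the amount of RNA. Of 36495 probe sets tested, 18511 carry a single gene symbol, and these stand for 18166 genes, the brightest probe set being taken where a gene has several. A gene is said to rise or fall only where limma's adjusted p (Benjamini-Hochberg over all 36495 probe sets) is under 0.05, and other values are given as higher or lower. The 6 arrays of a group limit the precision of every value.

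Healing around a plug in drilled bone begins with a blood clot and an influx of neutrophils and macrophages, drawn by chemokines such as the ligands of Ccr2. A provisional matrix rich in fibronectin and tenascins is then laid down by fibroblastic and osteogenic cells and filled with woven bone. Osteoclasts and osteoblasts later remodel this bone, collagen fibers are cross-linked by lysyl oxidases, and marrow with its B cell precursors and megakaryocytes returns to the cavity. Lithium is known to inhibit glycogen synthase kinase 3, which is the basis of its use as an activator of Wnt signaling. It also inhibits several phosphatases that need magnesium.

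Array quality was similar, with each Li+ array correlating at 0.9895 to 0.99516 with the mean of the other 5 of its group. The first principal component of the 12 arrays held 24.17% of the variance and the second 12.88%. On the first component the day 28 arrays lay at 8.36 to 41.9, rat 27 being the highest, apart from rat 28 at -12.1, which fell within the day 7 range of -28.7 to 0.13. On the third component rat 28 was the highest of the 12 arrays at 18.9. The array of rat 27 at day 28 stood apart by its skeletal muscle genes. The median SD within a group was 0.1296 at day 28 and 0.1208 at day 7. No batch or scan date is given, so none could be tested. Bglap, osteocalcin, which defines osteoblasts, had signals between 11.13 and 12.14 (median 11.91) at day 28 and between 11.72 and 12.46 (median 12.21) at day 7. In every Li+ array it lay above the median of 7.31 over all probe sets, but no call of detection was made.

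In Li+ bone, 49 genes fell and 25 rose at day 28 relative to day 7, which is 0.27% and 0.138% of the 18166 genes tested. The 5 largest falls were those of A2m, Ccl7, Tnn, Mcpt1 and Tagln, and the falls also held genes of collagen cross-linking, glycoproteins of the matrix and solute carriers, while the rises included genes of platelets and lymphocytes. The median fall was -0.72 and the median rise 0.43 on the log2 scale. Beyond 1.5-fold, 31 of the falls and 5 of the rises remained, and beyond 2-fold 14 falls and 1 rise. In 71 of the 74 genes the 6 arrays of day 28 did not overlap the 6 of day 7. Over all genes 1.16% lay wholly above and 0.941% wholly below. The 74 were called on the same arrays, so a lack of overlap describes them and is not further support. The 3 that overlapped were Mmp3, Tnfaip2 and Snx7. Bright probe sets, with a signal above the median of all, measured 66 of the 74. At an unadjusted p under 0.05, 1898 genes were higher and 1886 lower at day 28, or 10.4% each. These shares are the background for every list count at an unadjusted p below. At that p and 1.5-fold, 285 genes (1.57%) differed, 62 of them higher (0.341%) and 223 lower (1.23%). The median change over all genes was 0.02.

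The count of calls depended on single rats. Without rat 28, whose array lay within the day 7 range on the first component, 788 genes passed (222 rose, 566 fell). Without rat 29 or rat 4 there were 3, without rat 15 there were 4, without rat 27 there were 5 and without rat 21 there were 7. The count was 8 without rat 23 or rat 11, 10 without rat 7, 26 without rat 5, 46 without rat 30 and 62 without rat 10. Fbln2, Tgfbi and Ccbe1 passed in all 12 of these fits. The call of A2m ended in 2, without rat 29 (adjusted p = 0.0533 from limma) and without rat 4 (adjusted p = 0.0502). For each of the other 70 genes it ended in 6 to 11 of the 12, while in none of the 12 did the direction turn. Every adjusted p given for a single gene is that of all 12 arrays. With all 24 arrays fitted and the rat as a random block, 89 genes passed, among them 43 of the 74. The 31 whose call ended there, at adjusted p up to 0.212, included Tnn, Vcan, Mmp3, P4ha3, Slc16a3, Prg4 and Gstm1 and the rises of Treml1, Lrrc32, Fermt3 and Prss29-ps1.

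**Figure D1:**
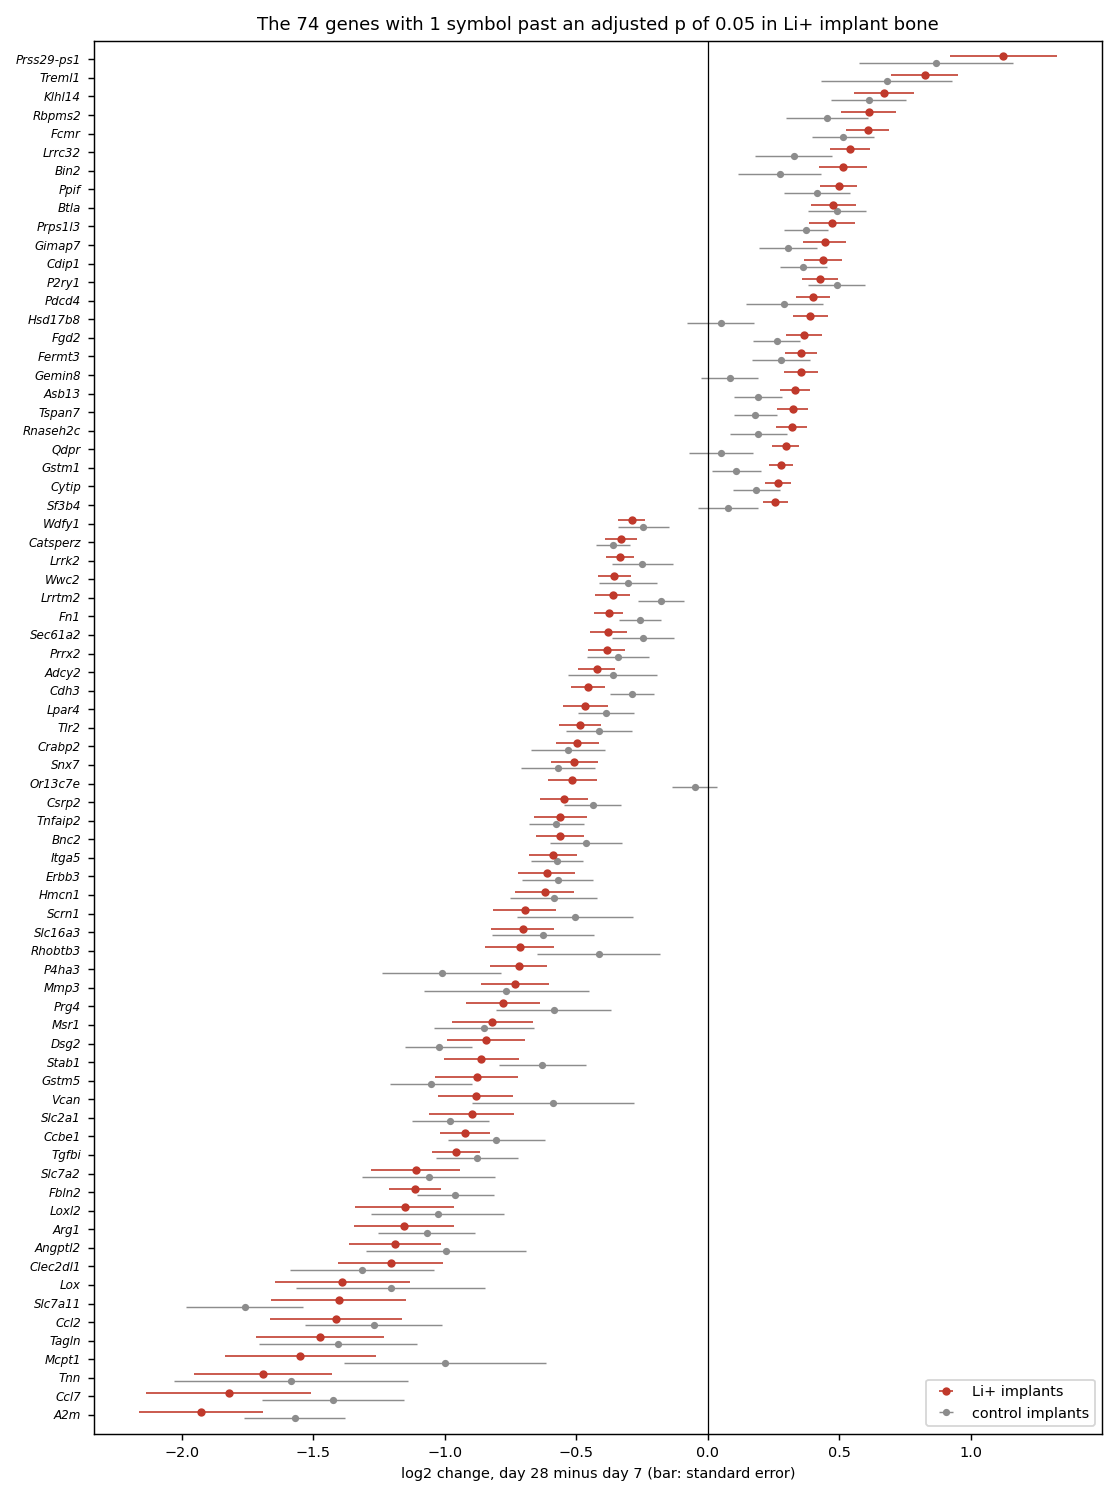
Log2 change between day 28 and day 7 of the 74 genes past the adjusted p in Li+ implant bone (red), with the change of the same genes around control implants below it (grey). Points are fitted differences and bars standard errors; the changes in Li+ bone run from 1.12 for Prss29-ps1 to -1.93 for A2m, and all 74 grey points lie on the same side of 0 as the red ones.

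Ccl2 and Ccl7, chemoattractants of monocytes, fell, as did the acute-phase gene A2m. A2m, alpha-2-macroglobulin, an acute-phase protease inhibitor in the rat, had log2 signals between 7.16 and 8.26 (median 7.56) at day 28 and between 9.05 and 10.39 (median 9.46) at day 7. No array of day 28 reached the lowest of day 7, and the gene fell by 1.93 (standard error 0.235, adjusted p = 0.0141 from limma), which is 3.8-fold. Ccl7, a chemokine ligand of Ccr2, lay between 5.91 and 7.29 (median 6.44) at day 28 and between 7.80 and 9.46 (median 8.06) at day 7. It fell by 1.82 (standard error 0.313, adjusted p = 0.0443 from limma), again without overlap. Ccl2, the main chemokine of monocytes, had signals between 9.12 and 10.36 (median 9.65) at day 28 and between 10.59 and 11.51 (median 11.06) at day 7 and fell by 1.41 (standard error 0.25, adjusted p = 0.0463 from limma). Its day 28 arrays fell into a higher set of 3 and a lower set of 3, all below day 7. Of 25 measured cytokines, chemokines and inflammatory mediators, these 3 fell and 0 rose, 13 were lower and 0 higher at an unadjusted p, and the median change was -0.49. Il1rn, the antagonist of the interleukin 1 receptor, stood at -0.69 (adjusted p = 0.0665 from limma), and F3, tissue factor, which starts coagulation, at -0.83 (adjusted p = 0.101). A2m, Ccl7, Ccl2, F3 and Il1rn are in the study's inflammation cluster of falling genes from these arrays. Lists were drawn in part from such clusters, so the counts of this list describe it and are not separate support. Cxcl2, a neutrophil chemokine, had signals between 6.66 and 7.84 (median 6.88) at day 28 and between 6.67 and 11.29 (median 7.75) at day 7, where it spread widely. Its groups overlapped and its change of -1.39 did not pass (standard error 0.652, adjusted p = 0.318 from limma). Il6 differed by -0.04 (adjusted p = 0.967 from limma). At day 28 its signal was 7.46 in rat 30 and 5.44 to 6.06 in the other arrays, against 5.89 to 6.39 at day 7.

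Among macrophage genes 2 fell, and the others lay on both sides of 0. Arg1, arginase, which marks macrophages of repair in rodents, had signals between 6.23 and 7.11 (median 6.63) at day 28 and between 7.29 and 8.47 (median 7.81) at day 7 and fell by 1.16 (standard error 0.189, adjusted p = 0.0406 from limma). The groups did not overlap. Msr1, the scavenger receptor A, fell by 0.82 (standard error 0.153, adjusted p = 0.0495). Its signals lay between 8.79 and 9.78 (median 9.58) at day 28 and between 10.01 and 10.57 (median 10.34) at day 7, and rat 27 was the lowest of all. Of 19 measured macrophage genes these 2 fell and 0 rose. At an unadjusted p, 8 were lower and 3 higher, with a list median of -0.23. Olr1, a receptor of oxidized lipoproteins, stood at -0.67, Gpnmb at -0.35 and Adgre1, a surface receptor of rodent macrophages, at -0.26, while C1qc, a chain of complement C1q, stood at 0.21, none of them past the adjusted p. Outside the list, the scavenger receptor Stab1 fell by 0.86, the C-type lectin Clec2dl1 by 1.21, the pattern receptor Tlr2 by 0.49 and Tnfaip2, a gene induced by tumor necrosis factor, by 0.56. Interferon-stimulated genes had a median of 0.11 over 15 measured, with 1 higher at an unadjusted p. Their score was 0.65 in rat 27 and -0.19 to 0.15 in the other day 28 arrays. Without rat 27 the median was 0.04, with 1 higher and 2 lower. The 10 genes of MHC class II had a median of 0.06, and 0 of them passed even an unadjusted p. Of 12 complement genes, 7 were higher and 5 lower by sign. At an unadjusted p, 2 were higher and 3 lower, where 10.4% of all genes lay each way.

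Glycoproteins of the matrix held 2 of the 3 genes, Fbln2 and Tgfbi, that passed whichever rat was left out. Fbln2, a fibulin of elastic fibers and basement membranes, lay between 7.43 and 7.78 (median 7.64) at day 28 and between 8.55 and 9.14 (median 8.70) at day 7. The gap between the groups was wider than the range of either, and the gene fell by 1.11 (standard error 0.0979, adjusted p = 0.00169 from limma). Tgfbi, a matrix protein induced by TGF-beta, had signals between 10.03 and 10.55 (median 10.10) at day 28 and between 10.99 and 11.27 (median 11.15) at day 7 and fell by 0.96 (standard error 0.0912, adjusted p = 0.00213). Its highest day 28 array, rat 30, was still clear of day 7. Tnn, tenascin W, a protein of the osteogenic periosteum, ranged between 8.11 and 9.85 (median 9.11) at day 28 and between 10.20 and 11.09 (median 10.69) at day 7. It fell by 1.69 (standard error 0.263, adjusted p = 0.038 from limma), or 3.23-fold, without overlap. Fn1, fibronectin, had signals between 12.54 and 12.71 (median 12.68) at day 28 and between 12.88 and 13.11 (median 13.06) at day 7. Its fall of 0.38 was small but larger than the spread within either group (standard error 0.0551, adjusted p = 0.0327). Of 23 measured glycoproteins these 4 fell, 15 were lower and 0 higher at an unadjusted p, and the median change was -0.41. Thbs2, thrombospondin 2, stood at -1.43 (adjusted p = 0.0804 from limma) and Nid1, nidogen, at -0.67 (adjusted p = 0.0579), and in both the groups did not overlap.

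**Figure D2:**
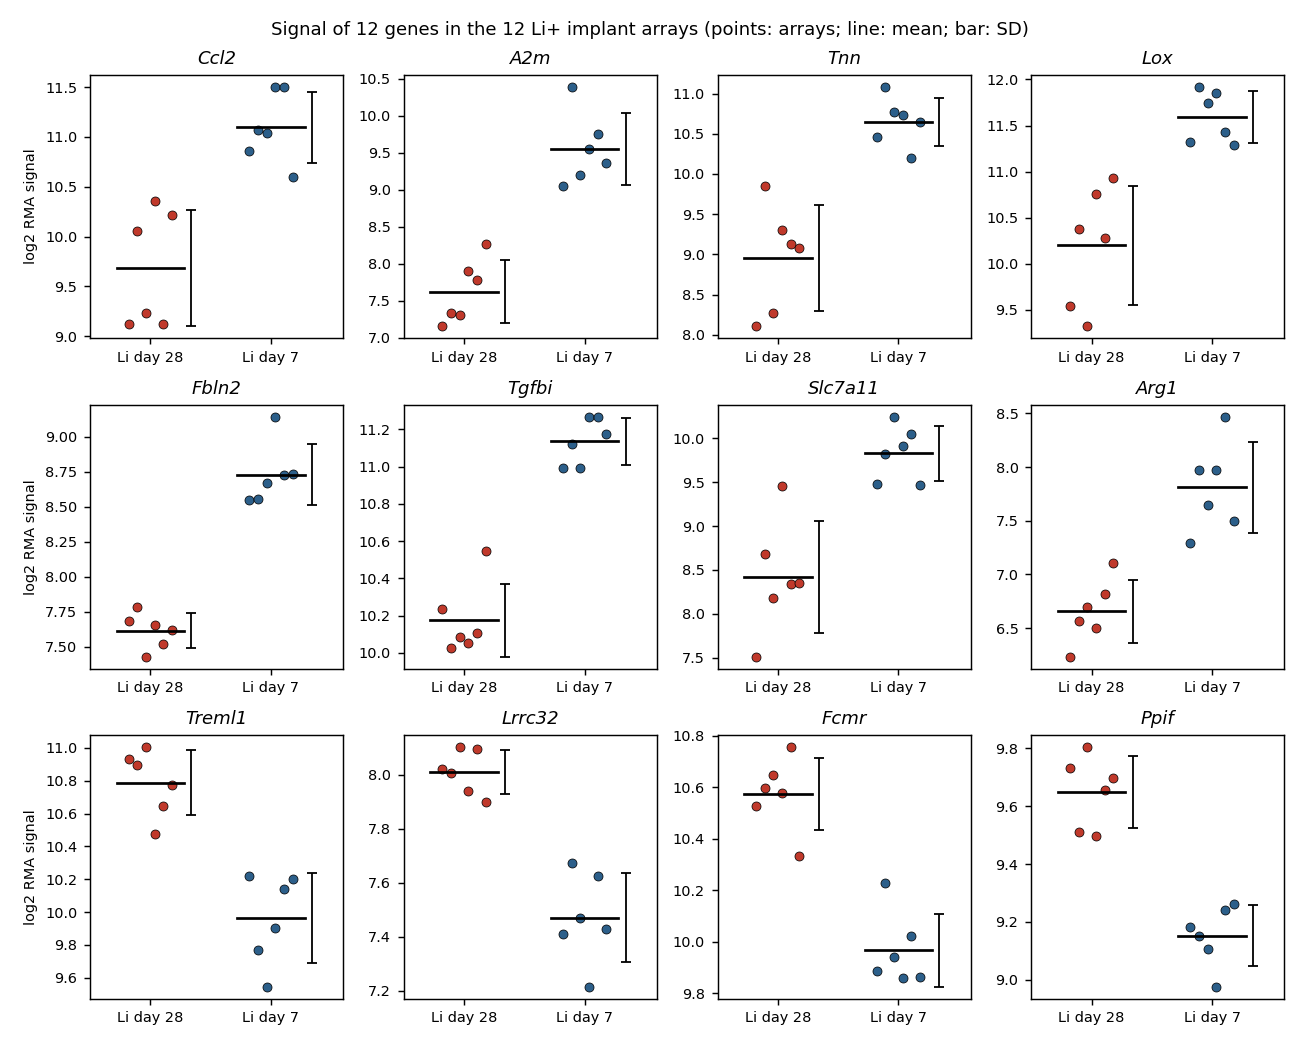
Log2 RMA signal of 12 genes in the 6 arrays of Li day 28 (red, left) and the 6 of Li day 7 (blue, right), each panel with its own axis. The line is the mean and the bar the SD; 8 genes fell and 4 rose, and in every panel the groups are separate.

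Collagens were lower as a group without a call, while 3 of the enzymes that modify them fell. Of 20 measured collagen genes, 0 passed the adjusted p, and all 20 were lower at day 28, 18 of them at an unadjusted p, with a median of -0.52. Col12a1, a collagen of fibril surfaces, had signals between 10.56 and 11.90 (median 11.60) at day 28 and between 11.93 and 12.68 (median 12.36) at day 7, a change of -0.92 (standard error 0.219, adjusted p = 0.0926 from limma). Col11a1 stood at -0.82, Col3a1 at -0.68 and Col4a2, of basement membranes, at -0.42. Col1a1, the main collagen of bone, stood at -0.24 (standard error 0.105) and Col1a2 at -0.30, and both overlapped between the days. Lox, lysyl oxidase, which cross-links collagen and elastin, had signals between 9.32 and 10.93 (median 10.33) at day 28 and between 11.29 and 11.92 (median 11.59) at day 7. It fell by 1.39 (standard error 0.257, adjusted p = 0.0473 from limma), and no array overlapped. Loxl2, its relative, fell by 1.15 (standard error 0.187, adjusted p = 0.0406), with signals between 8.31 and 9.56 (median 9.04) at day 28 and between 9.93 and 10.42 (median 10.16) at day 7. P4ha3, a subunit of the prolyl hydroxylase that stabilizes the collagen helix, fell by 0.72 (standard error 0.107, adjusted p = 0.0352). Of 19 measured genes of collagen cross-linking and folding these 3 fell, 18 were lower at an unadjusted p, and the median was -0.59. P4ha2 at -0.73, P4ha1 at -0.64 and Serpinh1, the collagen chaperone, at -0.63 did not pass. Without rat 27 the medians of the collagens and of this list were -0.46 and -0.46, with 15 and 14 lower, and without rat 28 they were -0.62 and -0.69.

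Vcan, versican, a large proteoglycan of provisional matrix, fell by 0.88 (standard error 0.143, adjusted p = 0.0406 from limma). Its signals lay between 9.65 and 10.59 (median 9.77) at day 28 and between 10.62 and 11.00 (median 10.72) at day 7, the highest at day 28, rat 30, lying just below the lowest at day 7. Aspn, asporin, a small leucine-rich proteoglycan, had the most negative change of all 18166 genes at -2.02, but its signals spread between 8.05 and 10.57 (median 9.15) at day 28 against between 10.62 and 11.75 (median 11.28) at day 7. With a standard error of 0.408 it missed the threshold (adjusted p = 0.0653), although the groups did not overlap. Of 15 measured proteoglycans 1 fell, 8 were lower at an unadjusted p and the median was -0.48, with Lum at -0.55, Ogn at -0.54 and Dcn, decorin, at -0.48. Mmp3, stromelysin, fell by 0.73 (standard error 0.129, adjusted p = 0.0463 from limma). Its signals lay between 6.21 and 6.80 (median 6.37) at day 28 and between 6.72 and 7.40 (median 7.25) at day 7, and the lowest of day 7, rat 7, was within the day 28 range. Of 25 measured matrix proteases and inhibitors, 17 were lower and 1 higher at an unadjusted p, the higher one being Timp3, a protease inhibitor, at 0.35. Adamts5, which cleaves aggrecan, stood at -0.42 and Plat, tissue plasminogen activator, at -0.72. Itga5, the integrin chain that binds fibronectin, fell by 0.59 (standard error 0.091, adjusted p = 0.038), with signals between 9.92 and 10.36 (median 10.05) at day 28 and between 10.52 and 10.87 (median 10.71) at day 7. Among 14 measured integrins that bind matrix, 5 were lower and 1 higher at an unadjusted p (8 lower without rat 28). Hmcn1, hemicentin, fell by 0.62, Ccbe1, a secreted factor of lymphatic growth, by 0.92 (standard error 0.0933, adjusted p = 0.00282 from limma) and Angptl2, a secreted angiopoietin relative, by 1.19.

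Of the bone cells themselves, no list had a member past the adjusted p. Of 18 measured osteoblast genes, 8 were lower and 0 higher at an unadjusted p, with a median of -0.37. Bglap, osteocalcin, stood at -0.42 (adjusted p = 0.296 from limma), Sp7, osterix, at -0.56 and Alpl, alkaline phosphatase, at -0.33. Without rat 28 the count was 15 lower. Of 11 osteocyte genes, 6 were lower, with a median of -0.48. Phex, a peptidase of osteocytes that controls phosphate, had signals between 8.94 and 10.33 (median 9.91) at day 28 and between 10.62 and 11.40 (median 11.01) at day 7. Its change of -1.27 (standard error 0.254, adjusted p = 0.0646 from limma) came without overlap. Pdpn, podoplanin, of early osteocytes, stood at -0.96 and Sost, sclerostin, at -0.35. Of 11 osteoclast genes, 8 were lower and 0 higher, with a median of -0.45, including Ctsk, cathepsin K, at -0.35 and Atp6v0d2, a proton pump subunit, at -0.73. That count was 3 without rat 4, 4 without rat 15, 21 or 27 and 5 without rat 23. In bulk bone, fewer cells of a type and less RNA per cell cannot be told apart.

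Cartilage genes were split. Prg4, lubricin, fell by 0.78 (standard error 0.142, adjusted p = 0.0463 from limma) and Acan, aggrecan, stood at -1.29 (adjusted p = 0.0654), with signals between 8.21 and 9.76 (median 8.93) at day 28 and between 9.89 and 10.60 (median 10.15) at day 7. The defining gene of hyaline cartilage went the other way. Col2a1 had signals between 7.44 and 8.01 (median 7.75) at day 28 and between 7.03 and 7.59 (median 7.44) at day 7, a change of 0.41 (adjusted p = 0.118 from limma), and Sox5 stood at 0.25 and Col10a1 at 0.20. Over 17 measured cartilage genes 4 were lower and 3 higher at an unadjusted p and the median was 0.00. Of pericytes and smooth muscle, Tagln, transgelin, an actin-binding protein of contractile cells, fell by 1.47 (standard error 0.242, adjusted p = 0.0406). Its signals lay between 8.51 and 9.68 (median 9.01) at day 28 and between 9.93 and 10.93 (median 10.68) at day 7, with no overlap, and it was 1 of 11 measured genes of that list, whose median was -0.17. Mcam at -0.54 and Rgs5 at -0.46 were lower at an unadjusted p, while Myh11, the myosin that defines smooth muscle, stood at -0.14 (adjusted p = 0.352). Outside the list Csrp2, a LIM protein of smooth muscle, fell by 0.55. Of 15 endothelial genes, 6 were lower and 0 higher at an unadjusted p, with a median of -0.20. Without rat 28, 11 were lower, and without rat 4, 21 or 23 there were 3. Of the 11 genes of pericytes and smooth muscle 5 were lower at an unadjusted p, and 3 without rat 15, 21 or 27.

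Carriers of glucose, lactate, arginine and cystine fell. Slc2a1, the glucose transporter, fell by 0.90 (standard error 0.163, adjusted p = 0.0463 from limma), with signals between 9.43 and 10.21 (median 9.72) at day 28 and between 10.36 and 11.05 (median 10.66) at day 7. Slc16a3, which exports lactate, fell by 0.70 (standard error 0.121, adjusted p = 0.044). In neither did the groups overlap. Of 18 measured genes of glycolysis and hypoxia these 2 fell, 10 were lower and 0 higher at an unadjusted p, and the median was -0.21, with Pdk1 at -0.35, Vegfa at -0.39 and Hk2, hexokinase, at -0.25. Slc7a2, a carrier of arginine and lysine, fell by 1.11 (standard error 0.17, adjusted p = 0.038 from limma), its signals lying between 9.29 and 10.15 (median 9.62) at day 28 and between 10.34 and 11.22 (median 10.71) at day 7. With Arg1 it made 2 falls among 14 measured genes of arginine and proline metabolism, in which 6 were lower and 2 higher at an unadjusted p. Pycr1, which makes proline, stood at -0.51 and Ass1, which makes arginine, at 0.40.

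Slc7a11, the cystine importer that feeds glutathione synthesis, had signals between 7.52 and 9.45 (median 8.35) at day 28 and between 9.46 and 10.24 (median 9.86) at day 7. It fell by 1.40 (standard error 0.257, adjusted p = 0.0464 from limma), and the highest day 28 array lay just below the lowest of day 7. Gstm5, a glutathione transferase, lay between 8.96 and 9.34 (median 9.16) at day 28 and between 9.38 and 10.51 (median 10.14) at day 7 and fell by 0.88 (standard error 0.158, adjusted p = 0.0463). Its relative Gstm1 rose by 0.28 (standard error 0.0455, adjusted p = 0.0406 from limma). Such paralogs are alike in sequence, and probes shared between them were not examined. Of 17 measured targets of Nrf2 and genes of glutathione synthesis, 2 fell, 6 were lower and 1 was higher at an unadjusted p (3 higher without rat 10), with a median of -0.10. Slc7a11 and Gstm5 are on this list, but Gstm1 is not and its rise is not counted there. The reductase Akr1b8 stood at -1.08, heme oxygenase Hmox1 at -0.37 and Nqo1 at -0.33. Both subunits of the enzyme that begins glutathione synthesis, Gclm at 0.26 and Gclc at 0.22, were higher, though not at an unadjusted p. Nrf2 is known to bind the antioxidant response element, searched here as TGACNNNGC on both strands of the window from 250 bases before to 50 after the start of a gene in RefSeq on GRCr8. A match occurred in 5 of the 15 list members with a window (33.3%) and in 12.2% of 27457 windows, 1 for each gene. Gstm5, the member with the smallest p among those that matched, is printed with its 2 matches in capitals, which begin 113 and 53 bases before the start. A match is a string of letters and not a binding site.
Gstm5 promoter, GRCr8 chr2:198219519-198219818, plus strand: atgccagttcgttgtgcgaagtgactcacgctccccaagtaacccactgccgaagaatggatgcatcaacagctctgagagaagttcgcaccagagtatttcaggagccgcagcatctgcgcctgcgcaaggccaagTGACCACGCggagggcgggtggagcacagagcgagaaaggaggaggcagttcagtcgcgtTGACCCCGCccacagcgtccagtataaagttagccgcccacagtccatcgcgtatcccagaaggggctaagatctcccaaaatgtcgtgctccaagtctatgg

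Platelet genes were higher at day 28 in every measured member, and 3 of them rose. Treml1, a receptor stored in platelet granules, had signals between 10.48 and 11.01 (median 10.83) at day 28 and between 9.54 and 10.22 (median 10.02) at day 7. It rose by 0.82 (standard error 0.127, adjusted p = 0.038 from limma), or 1.77-fold, and the groups did not overlap. Lrrc32, which holds latent TGF-beta on platelets and regulatory T cells, rose by 0.54 (standard error 0.0763, adjusted p = 0.0278), its signals lying between 7.90 and 8.10 (median 8.01) at day 28 and between 7.21 and 7.67 (median 7.45) at day 7. P2ry1, an ADP receptor of platelets, rose by 0.43 (standard error 0.0693, adjusted p = 0.0406). Of 21 measured genes of megakaryocytes and platelets these 3 rose and 0 fell. By sign all 21 were higher, 18 at an unadjusted p, and the median was 0.54. Gp1ba, the chain of the platelet receptor that grips von Willebrand factor, had signals between 9.58 and 10.50 (median 10.01) at day 28 and between 8.68 and 9.69 (median 9.33) at day 7. Its change was 0.79 (standard error 0.183, adjusted p = 0.0896 from limma), and the groups overlapped. The chemokine Pf4, platelet factor 4, stood at 0.51, the von Willebrand receptor chains Gp9 and Gp5 at 0.76 and 0.77, P-selectin Selp at 0.72 and the podoplanin receptor Clec1b at 0.77. On the score of the list, the mean log2 signal after centering each gene on the 12 arrays, rat 28 at day 28 lay at -0.07, within the day 7 range of -0.59 to -0.02, and the other 5 day 28 arrays lay at 0.22 to 0.55. The list median was 0.61 without rat 28 and 0.51 without rat 27. Outside the list, Fermt3, kindlin-3, which activates integrins in platelets and leukocytes, rose by 0.35 (standard error 0.0611, adjusted p = 0.0443 from limma).

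GATA factors drive many genes of megakaryocytes, so AGATAA was searched in the same windows on both strands. It was found in 4 of the 14 platelet genes with a window (28.6%) and in 11.3% of all windows. The 2 with the smallest p, Gp1ba and Clec1b, are printed with the match in capitals, which begins 104 and 122 bases before the start. The ETS motif CCGGAAG was found in 1 of the 14 (9.22% of all windows). The E-box CANNTG was found in 7 of the 14 (71.6% of all windows). The CArG box, a run of A or T between CC and GG, was found in 1 of the 14 (1.64% of all windows). It was found in 0 of 6 windows of pericyte and smooth muscle genes. Over the genes that rose and those that fell, AGATAA was found in 1 of 21 and 1 of 35 windows. CCGGAAG was found there in 5 of 21 and 1 of 35, and CANNTG in 9 of 21 and 25 of 35. No share was tested.
Gp1ba promoter, GRCr8 chr10:55851309-55851608, plus strand: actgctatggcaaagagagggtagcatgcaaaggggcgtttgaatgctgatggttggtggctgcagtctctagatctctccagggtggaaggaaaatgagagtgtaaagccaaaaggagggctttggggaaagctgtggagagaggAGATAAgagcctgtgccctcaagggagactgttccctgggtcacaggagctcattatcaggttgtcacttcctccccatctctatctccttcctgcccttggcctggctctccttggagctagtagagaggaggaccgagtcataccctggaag
Clec1b promoter, GRCr8 chr4:164533859-164534158, plus strand: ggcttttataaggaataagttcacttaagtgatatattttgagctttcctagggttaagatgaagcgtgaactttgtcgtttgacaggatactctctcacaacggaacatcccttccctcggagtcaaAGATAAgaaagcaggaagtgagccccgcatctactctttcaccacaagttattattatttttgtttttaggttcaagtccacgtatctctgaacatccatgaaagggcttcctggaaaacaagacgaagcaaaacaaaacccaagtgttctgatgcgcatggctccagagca

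B cell genes were likewise higher at day 28 in every measured member. Fcmr, the receptor of IgM on B cells, had signals between 10.33 and 10.76 (median 10.59) at day 28 and between 9.86 and 10.23 (median 9.91) at day 7 and rose by 0.61 (standard error 0.081, adjusted p = 0.0262 from limma). No array overlapped. Of 21 measured B cell genes this 1 rose, 19 were higher at an unadjusted p, 11 had no overlap between the days and the median was 0.42. Genes of precursors and of mature cells were both among them. Rag2, the recombinase of lymphocyte precursors, had signals between 9.30 and 9.90 (median 9.61) at day 28 and between 8.08 and 9.23 (median 8.90) at day 7, a change of 0.79 (adjusted p = 0.0765 from limma). Its partner Rag1 stood at 0.43, Cd79a of the B cell receptor at 0.48, Tnfrsf13c, the survival receptor, at 0.48, the kinase Blk at 0.68 and Ms4a1, the CD20 antigen, at 0.58. On the list score all 6 arrays of day 28, at 0.08 to 0.42, lay above the 6 of day 7, the highest of which was at -0.0016. The median was 0.42 without rat 27 and 0.48 without rat 28. Off the list, 4 genes of lymphocytes or antigen-presenting cells rose too. Btla, an inhibitory receptor, rose by 0.48 (standard error 0.0852, adjusted p = 0.0463 from limma), Gimap7, a GTPase of lymphocytes, by 0.44, Cytip, which restrains adhesion of activated lymphocytes, by 0.27 and Fgd2, an exchange factor of antigen-presenting cells, by 0.37. By contrast, of 22 genes of T and NK cells 3 were higher at an unadjusted p (1 without rat 15, 21 or 23), where 10.4% of all genes were. Their median was 0.02, and of 7 plasma cell genes 1 was higher, 1 lower and the median 0.10.

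Other marrow lineages were less clear. Of 16 erythroid genes all were higher at day 28, but 4 passed an unadjusted p and none the adjusted p, with a median of 0.31. The transcription factor Gata1 stood at 0.52 (adjusted p = 0.172 from limma) and the erythropoietin receptor Epor at 0.41. The 4 became 2 without rat 4 or 21, 7 without rat 28 and 10 without rat 10. Rat 11 at day 7 was far below the rest on this list, with a score of -0.84 against -0.18 to 0.23 in the other 5 rats of day 7. Of 16 neutrophil genes 4 were higher at an unadjusted p and 0 lower, and these were the primary granule proteases of precursors Elane at 0.42, Prtn3 at 0.39 and Ctsg at 0.32 and the peroxidase Mpo at 0.33, with 2 left without rat 4, 23 or 30. Of 27 cell cycle genes 13 were higher at an unadjusted p and all 27 by sign, with a median of 0.25 and Cdc20 at 0.38. On the cell cycle score rat 28 of day 28 lay at -0.17, within the day 7 range of -0.39 to 0.16. The 13 became 21 without rat 28, 8 without rat 30, 7 without rat 15, 6 without rat 21 and 5 without rat 4 or 11. Genes of mast cells and basophils parted, with 5 of 12 higher and 1 lower at an unadjusted p (3 higher without rat 4, 15, 21 or 23). Mcpt1, a mast cell chymase, fell by 1.55 (standard error 0.286, adjusted p = 0.0473 from limma), with signals between 6.74 and 8.86 (median 8.19) at day 28 and between 9.28 and 9.95 (median 9.68) at day 7 and the lowest array in rat 27. Prss34, a tryptase that basophils make in the mouse, had signals between 7.24 and 9.95 (median 8.22) at day 28 and between 6.52 and 7.82 (median 6.90) at day 7. It had the most positive change of all 18166 genes at 1.47, but with a standard error of 0.466 and overlapping groups it did not pass (adjusted p = 0.151 from limma). The pseudogene Prss29-ps1, named after a related serine protease, rose by 1.12 (standard error 0.202, adjusted p = 0.0463), with signals between 8.996 and 10.05 (median 9.76) at day 28 and between 7.92 and 8.93 (median 8.62) at day 7. Hdc, which makes histamine, stood at 0.58 and Mcpt8, of mouse basophils, at 0.58.

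**Figure D3:**
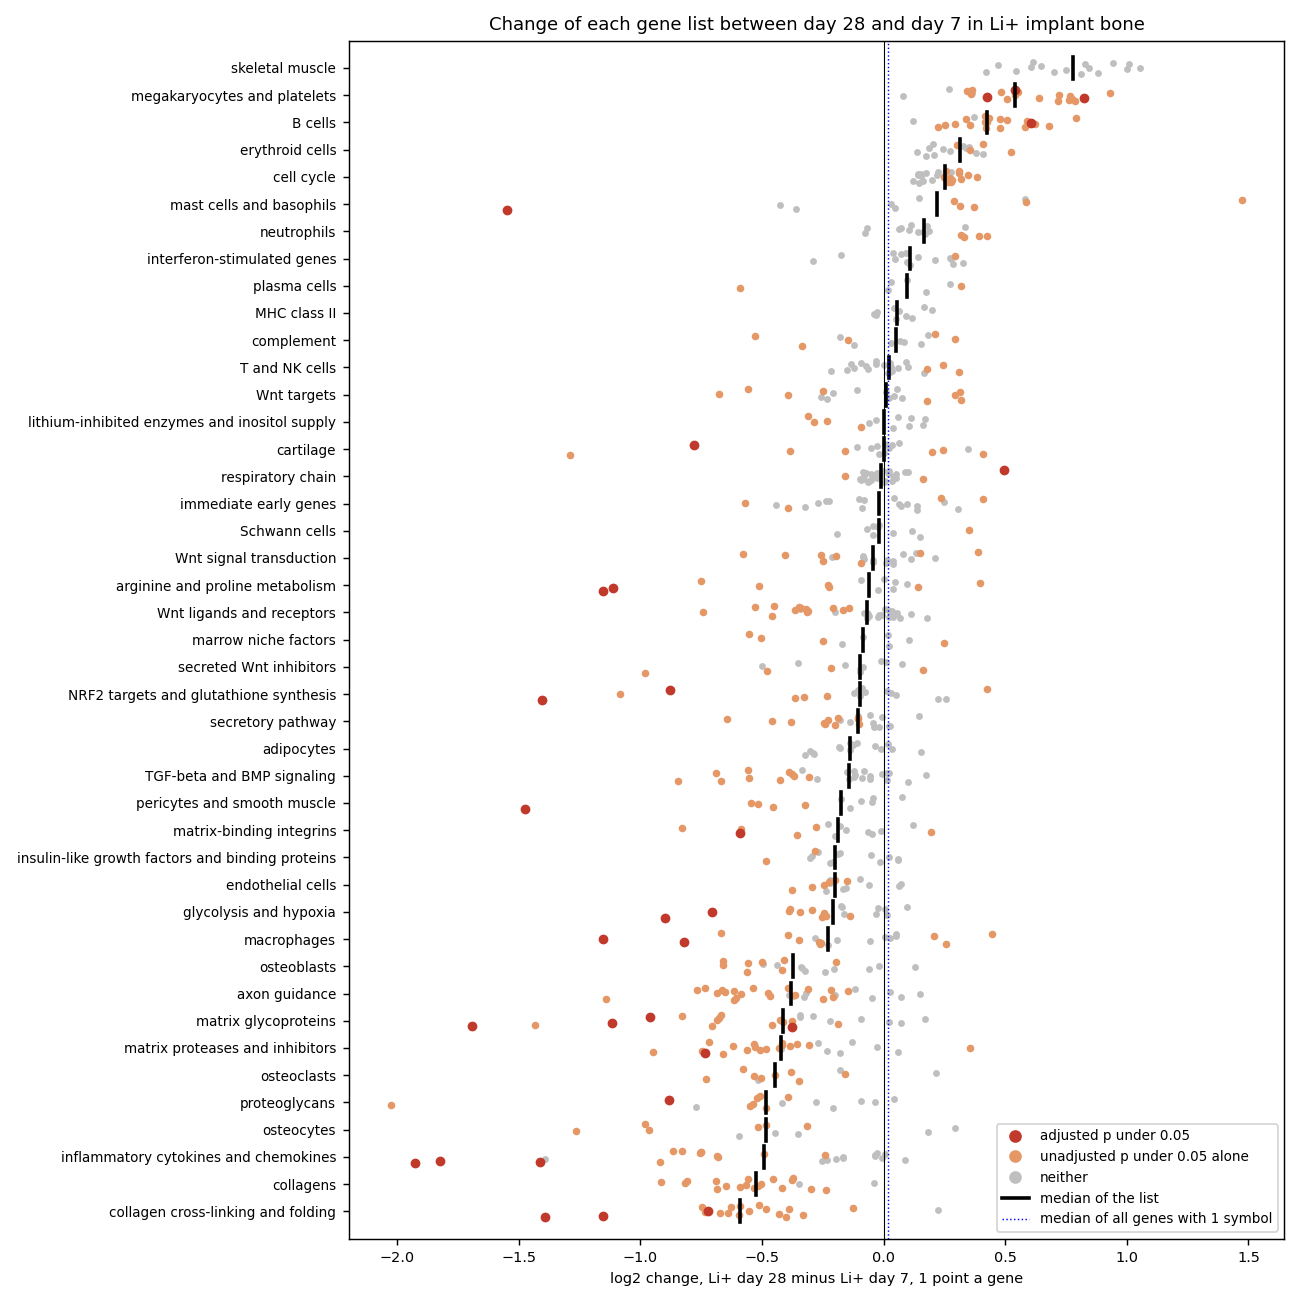
Log2 change between day 28 and day 7 in Li+ bone of every measured gene (points) of 43 gene lists, with the list median (bar), lists ordered from the highest median at the top. Red points passed the adjusted p and orange points the unadjusted p alone; collagen cross-linking and folding lies lowest at -0.59 and, after skeletal muscle, megakaryocytes and platelets lie highest at 0.54, against 0.02 for all genes (dotted line).

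Ppif, the cyclophilin of mitochondria, rose by 0.50 (standard error 0.0691, adjusted p = 0.0278 from limma), with signals between 9.50 and 9.81 (median 9.68) at day 28 and between 8.98 and 9.26 (median 9.17) at day 7 and no overlap. It stood on the list of the respiratory chain, of whose 31 measured genes 2 were higher and 1 lower at an unadjusted p (5 lower without rat 27). Genes on none of the lists made up 46 of the 74 calls. Among their rises, Klhl14, a Kelch protein, rose by 0.67, the RNA-binding protein Rbpms2 by 0.61, Bin2, a membrane-bending protein of leukocytes, by 0.51, Cdip1, a target of p53, by 0.44 and Pdcd4, an inhibitor of translation, by 0.40. Smaller rises were those of Prps1l3, Hsd17b8, Gemin8, Asb13, Tspan7, Rnaseh2c, Qdpr and the splicing factor Sf3b4, at 0.47 down to 0.26. Sf3b4 had the narrowest day 28 group of the rises, between 9.37 and 9.46 (median 9.41), against signals between 9.05 and 9.25 (median 9.17) at day 7.

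The remaining falls held several receptors, adhesion proteins and transcription factors. Dsg2, a cadherin of desmosomes, fell by 0.84 (standard error 0.148, adjusted p = 0.0463 from limma), Cdh3, P-cadherin, by 0.46, Erbb3, a receptor of neuregulins, by 0.61 and Lpar4, a receptor of lysophosphatidic acid, by 0.47. Cdh3 had signals between 6.32 and 6.47 (median 6.38) at day 28 and between 6.69 and 7.05 (median 6.85) at day 7, a tight group well below the other. The mesenchymal transcription factors Prrx2 and Bnc2 fell by 0.38 and 0.56. Crabp2, which carries retinoic acid, fell by 0.50 and Adcy2, an adenylate cyclase, by 0.42. Rhobtb3 and Scrn1 fell by 0.72 and 0.70, and falls of 0.51 or less were found for Snx7, Sec61a2, Lrrtm2, Wwc2, Lrrk2, Catsperz and Wdfy1. Or13c7e, named as an olfactory receptor, had signals between 3.87 and 4.36 (median 4.09) at day 28 and between 4.39 and 4.83 (median 4.59) at day 7, and fell by 0.52 (standard error 0.0931, adjusted p = 0.0463 from limma). Its signals lay far below the median of 7.31 over all probe sets.

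No gene close to the action of lithium passed the adjusted p. Of 12 measured enzymes that lithium inhibits and genes of inositol supply, 0 passed the adjusted p, 4 were lower and 0 higher at an unadjusted p and the median was 0.00. Gsk3b, glycogen synthase kinase 3 beta, had signals between 11.19 and 11.29 (median 11.25) at day 28 and between 11.30 and 11.41 (median 11.33) at day 7. The groups did not overlap, yet the change of -0.09 was small (standard error 0.0423, adjusted p = 0.304 from limma). Bpnt1 and Bpnt2, phosphatases that lithium inhibits, stood at -0.29 and -0.23, and Slc5a3, the inositol carrier, at -0.31. Of 34 ligands and receptors of Wnt, 13 were lower and 0 higher at an unadjusted p, with a median of -0.07 and 0 past the adjusted p. Fzd2, a Wnt receptor, had signals between 7.18 and 7.99 (median 7.55) at day 28 and between 7.99 and 8.77 (median 8.26) at day 7, a change of -0.74 without overlap (adjusted p = 0.0856 from limma). Wnt5a stood at -0.46, Wls, which escorts Wnt proteins to the surface, at -0.45 and the coreceptor Lrp5 at -0.32. Of 13 secreted inhibitors, 3 were lower and 1 higher, and Dkk1, which blocks Lrp5 and Lrp6, had signals between 7.99 and 9.31 (median 8.97) at day 28 and between 9.15 and 10.28 (median 9.86) at day 7. Its change was -0.98 (standard error 0.28, adjusted p = 0.123). Sfrp5, another inhibitor, stood at -0.50 with rat 28 far above the other day 28 arrays. The targets were divided, 4 higher and 4 lower of 17 (2 higher without rat 4, 7 or 29, and 7 lower without rat 28), with Axin2 at 0.18, Lef1 at 0.32, Ccn4 at -0.68, Twist1 at -0.56 and Fosl1 at -0.39. In signal transduction, Ctnnb1, beta-catenin, stood at -0.25 and Prkca at 0.39, neither past the adjusted p.

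Of 30 measured axon guidance genes, 20 were lower and 0 higher at an unadjusted p, with a median of -0.38 and 0 past the adjusted p. Sema3c stood at -1.14 (adjusted p = 0.0939 from limma), Robo1 at -0.68, Epha3 at -0.77 and the neuropilin Nrp1 at -0.36. Of 27 genes of TGF-beta and BMP signaling 10 were lower and 0 higher, with a median of -0.14, Tgfb2 at -0.85 and Tgfb3 at -0.67. Of 22 secretory pathway genes 11 were lower and 0 higher, with a median of -0.11 (7 lower without rat 11, 15 or 27). Of 14 genes of insulin-like growth factors 2 were lower (4 without rat 10 or 30 and 5 without rat 28), with Igf2r at -0.48, where 10.4% of all genes were lower. Among 20 immediate early genes 2 were higher and 2 lower (4 lower without rat 28 and 6 without rat 30), Dusp1 standing at 0.41 and Atf3 at -0.57. Of 9 marrow niche factors 3 were lower and 1 higher, with Cxcl12 at 0.02 and Csf1, the growth factor of macrophages and osteoclasts, at -0.50.

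Markers of neighboring tissue were checked for the whole of each list. The 16 measured skeletal muscle genes had a mean signal of 6.78 to 11.63 at day 28 and 6.67 to 7.45 at day 7, and rat 27 alone was high. Mb, myoglobin, had signals between 6.88 and 12.82 (median 7.26) at day 28 and between 6.88 and 7.45 (median 6.96) at day 7. The list median was 0.78 with 0 of 16 genes at an unadjusted p, and -0.04 without rat 27. The adipocyte list had a median of -0.14 over 15 genes with 0 at an unadjusted p (3 lower without rat 23 or 28), and the Schwann cell list -0.02 over 10 with 1 higher. Without rat 27 the median change of the inflammatory list was -0.40 with 11 lower, that of the matrix glycoproteins -0.37 with 12 lower, that of the osteoclasts -0.38 with 4 lower and that of axon guidance -0.33 with 16 lower. The matrix scores were lowest in rats 21 and 27, at -0.64 and -0.61 for the collagens. On the collagen score rat 28, at 0.11, lay within the day 7 range of 0.06 to 0.47. On the glycoprotein score it lay at -0.10, below the day 7 range of 0.08 to 0.50. On the proteoglycan score it lay at 0.058, just below the lowest day 7 array at 0.063. The part of muscle or of marrow content in these changes was not tested.

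**Figure D4:**
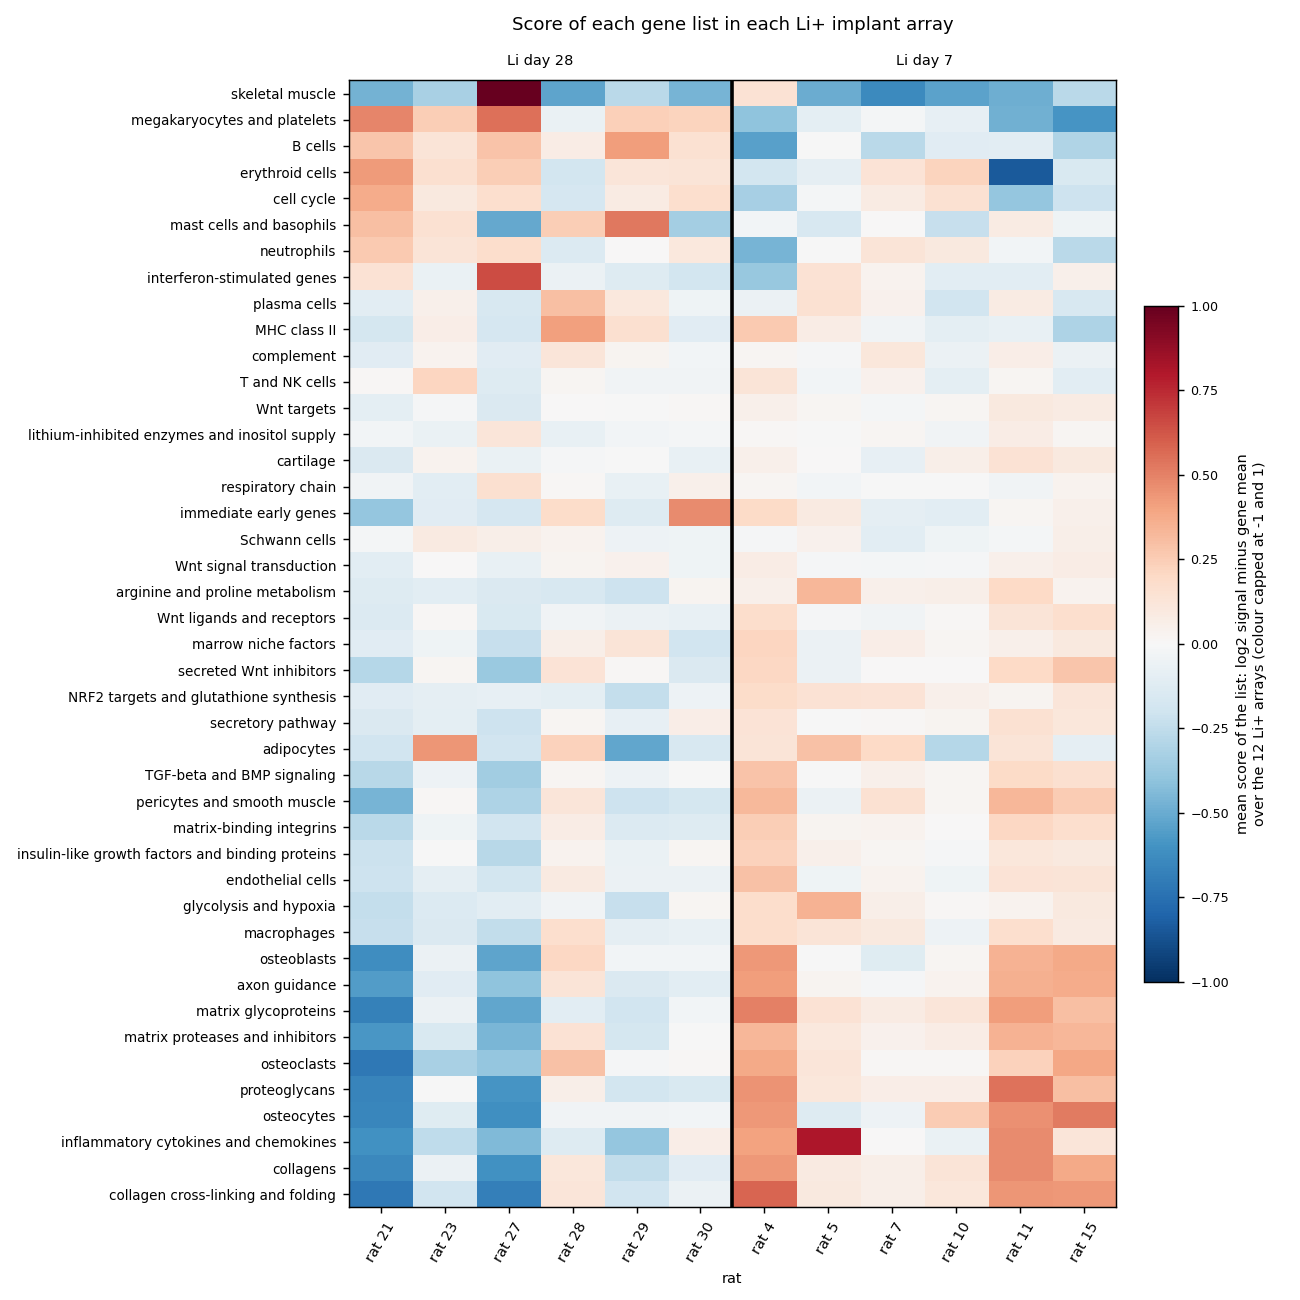
Mean score of each gene list (rows) in each Li+ array (columns), day 28 to the left of the line and day 7 to the right. Colour is the log2 signal minus the gene's mean over the 12 arrays, capped at -1 and 1; the collagen rows run from -0.64 in rat 21 to 0.47 in rat 11 and the skeletal muscle row is high in rat 27 at 4.33.

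Around the Ctrl implants of the same rats all 74 genes lay on the same side of 0, and 6 of them passed the adjusted p. The 49 genes that fell in Li+ bone had a median change of -0.59 around Ctrl implants, and the 25 that rose one of 0.29. Around Ctrl implants 28 genes (0.154%) passed in all. The 6 shared with the 74 were A2m, Fbln2, Slc2a1, Gstm5, Slc7a11 and Dsg2, with -1.93 in Li+ and -1.57 in Ctrl bone for A2m and -1.40 in Li+ and -1.76 in Ctrl bone for Slc7a11. The list medians stood at 0.54 in Li+ and 0.49 in Ctrl bone for megakaryocytes and platelets. They were 0.42 and 0.38 for B cells in Li+ and in Ctrl bone, -0.52 and -0.50 for collagens, and -0.48 and -0.18 for osteocytes. The values of Li+ and Ctrl bone come from the same rats and are not independent. Skeletal muscle genes were high in other rats around Ctrl implants than around Li+ implants. Their score was 4.78 in rat 23 and 2.83 in rat 29 at day 28, and -0.60 to -0.33 in the other 4 rats, and the list median was 0.78 in Li+ and 1.29 in Ctrl bone. Without the Ctrl arrays of rats 23 and 29 all 74 genes still lay on the same side of 0, 1 gene passed around Ctrl implants in all and 0 of the 74, and the median of the osteocytes there was -0.40. The Ctrl count also depended on single rats, with 1 gene without rat 21, 27 or 29, 2 without rat 11, 3 without rat 30, 4 without rat 5, 5 without rat 7, 14 without rat 10, 47 without rat 28 and 68 without rat 23. Between 0 and 13 of the 74 passed in these fits, and 73 or all 74 lay on the same side of 0. The part of muscle in the Ctrl values beyond this was not tested.

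The difference between the change in Li+ bone and that in Ctrl bone was tested as the interaction of day and implant, blocked on the rat. By limma 0 probe sets passed the adjusted p, the lowest of which was 0.9995, and 1320 (3.62%) an unadjusted p, among them 427 genes (2.35%). The 1320 were 661 higher and 659 lower in Li+ bone, which became 849 and 529 of 1378 after centering each array on its median. Without rats 23, 27 and 29, each with 1 array high in muscle genes, 0 probe sets passed the adjusted p (the lowest was 0.632) and 1293 an unadjusted p, 558 of which were among the 1320. Of the 74 genes 4 had an unadjusted p under 0.05 for this difference. Or13c7e, whose signals lay far below the median of all probe sets, stood at -0.52 in Li+ and -0.05 in Ctrl bone (unadjusted p = 0.000987 from limma). Hsd17b8 stood at 0.39 in Li+ and 0.05 in Ctrl bone (unadjusted p = 0.0114 from limma), and Gemin8 and Qdpr had unadjusted p of 0.0234 and 0.0438. Dkk1 stood at -0.98 in Li+ and -0.30 in Ctrl bone, a difference of -0.68 (standard error 0.227, unadjusted p = 0.01 from limma). Sost, -0.35 in Li+ and 0.14 in Ctrl bone, had an unadjusted p of 0.0123. Among genes above the median signal, the smallest unadjusted p were those of LOC290156 (0.00222), Itpripl1 (0.0036), Rpgr (0.00375), Apex1 (0.0057), Emd (0.00578), Ankef1 (0.00604), Camlg (0.00665) and Ndufb4l3 (0.00674). Apex1, an enzyme of DNA base excision repair, stood at 0.32 in Li+ and 0.05 in Ctrl bone, and Emd, emerin of the nuclear envelope, at 0.17 in Li+ and -0.09 in Ctrl bone. No gene was therefore shown to change differently around the Li+ implants.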

How the data were processed

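RNA of peri-implant bone was hybridized to Affymetrix Rat Gene 2.0 ST arrays, 1 array for each implant, in 24 samples. The authors made the deposited values with Expression Console 1.1.2 by robust multi-array average (RMA), and they are background-corrected, quantile-normalized and summarized probe set signals on the log2 scale. RMA brings the distributions of arrays close together (array medians of 7.29 to 7.32 in the Li+ samples), so a change of the whole RNA content is not visible, and whether all arrays were normalized in 1 run is not given in the sources used here. No replicate was pooled, and no authors' comparison entered a test. The 190 control probe sets were left out, which left 36495. Symbols came from the array annotation: 18511 probe sets had 1 symbol, 575 had several and 17409 had none, and 18394 of the first were found in RefSeq of GRCr8 without a change of name. For the 291 genes with several probe sets the brightest over the 24 arrays was used.

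Groups followed the sample titles. The main test was limma 3.58.1 (R 4.3.3) with lmFit and eBayes over all probe sets of the 12 Li+ arrays, day 28 minus day 7, after the unpaired test in the study's methods, with Benjamini-Hochberg adjustment and a threshold of 0.05. Ctrl arrays were fitted likewise. The difference of both time courses was fitted over the 24 arrays with a fixed term for each rat, since each rat carried both implants by the numbers in the titles and the methods. The deviations of same-rat arrays from their group means correlated at a median of 0.279 (0.0675 to 0.569), above 0.1 in 11 of 12 rats. The labels give the rats of a group as separate animals.

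Gene lists (43 lists of 835 genes, 754 measured) were described by counts and medians without a set test. Members and lists followed textbook roles, the study's clusters and earlier results of these data, which were known. Counts over a list therefore describe it and are not separate support. Named were the genes past the adjusted p, up to 6 members of each list with the smallest p and its defining markers, the 8 bright genes with the smallest p for the difference of time courses and the genes the study measured by qPCR. Promoter windows were read from RefSeq (GRCr8), 1 for each gene. The Li+ fit and the fit of the difference were tested on simulated data with known changes. Alternatives were leaving out each rat, trended and robust variances, array weights, median centering, bright probe sets only, single-symbol probe sets only, the methods' t-test and other treatments of the rat, among them a random block (consensus correlation 0.25). Leaving out the rats with arrays high in muscle genes, and each rat of the Ctrl comparison, was chosen after seeing the data. Figures were drawn with matplotlib 3.10.9.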

Additional observations from a re-analysis of the deposited data

Results flagged for a closer look

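In 13 of 270 groups of 6 arrays, taken from the genes past the adjusted p, the genes of the difference between time courses, the qPCR genes and the list scores, the gap between the most extreme array and its neighbor took an unusually large share of the group's range by Dixon's criterion. Chance gives about 1 in 20 groups. Of these, 4 came from rat 27 at day 28, the array high in skeletal muscle genes. Its muscle score of 4.33 stood against -0.27 for the next array, a gap of 0.948 of the range. Its score of the list of enzymes that lithium inhibits and genes of inositol supply was 0.121 against -0.0225 (0.736 of the range). Its Emd signal was 9.24 against 9.54 (0.825) and its Msr1 signal 8.79 against 9.45 (0.669), the last of these a gene that fell.

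At day 28, Vcan was highest in rat 30 at 10.59, with 9.86 in the next array (0.785 of the range), and so was Cxcl2 at 7.84 with 7.00 in the next (0.706). Fgd2 was highest in rat 29 at 9.52 against 9.29 (0.743), and the score of Nrf2 targets was lowest there at -0.240 against -0.113 (0.681). Lpar4 was lowest in rat 21 at 7.18 against 7.28 (0.728). Sfrp5, a secreted Wnt inhibitor, reached 9.84 in rat 28 with 8.55 in the next array (0.72). At day 7, rat 4 was highest for Fbln2 at 9.14 against 8.73 (0.69) and lowest for Klhl14 at 7.64 against 8.10 (0.712), and rat 7 was lowest for Mmp3 at 6.72 against 7.18 (0.677).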

How the results depend on the processing

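With 36495 probe sets and 6 arrays a group, the count past the adjusted p rested on the variance model, on the features tested and on single rats. The directions of the called genes did not turn when a rat was left out. Settings that alter only the variance or the features tested keep each gene's change, so direction could not turn in them. The count was 102 probe sets and 74 genes, against 229 and 161 with trended robust variances, 521 and 391 over bright probe sets only, 265 and 263 over single-symbol probe sets only and 23 and 20 by the methods' t-test after Benjamini-Hochberg. All 74 genes were among the 161 and the 263, 66 among the 391 and 14 among the 20. The t-test also turned the balance, with 12 genes higher and 8 lower. Over bright or single-symbol probe sets only, both the variance model and the adjustment were redone on fewer features. The cause of the differences between settings was not tested. Leaving out 1 rat gave 3 to 1019 probe sets and 3 to 788 genes at the adjusted p, the lowest without rat 29 or rat 4 and the highest without rat 28. It gave 4470 to 7127 probe sets at an unadjusted p (5873 with all rats) and 365 to 664 beyond 1.5-fold (449 with all rats), which became 288 over single-symbol probe sets only.

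The difference between the time courses gave 0 probe sets at the adjusted p in each of these settings. At an unadjusted p it gave 1320 with the rat as a fixed block, 769 with no replicate block, 1445 with a random replicate block, 495 over bright probe sets only and 1193 to 1622 when 1 rat was left out. In the Li+ comparison itself the days share no rat, and the 24 arrays with a random replicate block gave 128 probe sets and 89 genes, which held 58 of the 102 probe sets and 43 of the 74 genes. Without the 3 rats that had an array high in muscle genes, chosen after seeing the data, the difference gave 0 probe sets at the adjusted p and 1293 at an unadjusted p.

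The medians of 9 of the 43 lists took the other sign in at least 1 setting, most of them near 0. By more than the spread between arrays, that of cartilage turned to -0.19 over bright probe sets only (-0.022 to 0.020 over the leave-outs) and that of the enzymes lithium inhibits and inositol supply to -0.065 without rat 27 (-0.065 to 0.024). Within that spread, leaving out 1 rat gave -0.041 to 0.98 for skeletal muscle (the lowest without rat 27), -0.023 to 0.13 for MHC class II, -0.043 to 0.052 for T and NK cells, -0.031 to 0.042 for Wnt targets, -0.13 to 0.060 for immediate early genes, -0.044 to 0.012 for the respiratory chain and -0.031 to 0.018 for Schwann cells. Of 817 alternative list medians, 814 moved by less than the spread between arrays, and the median of Wnt ligands and receptors moved to -0.26 over bright probe sets only. In that setting a list keeps only its bright members, whose changes stay the same. The medians of cartilage and of Wnt ligands and receptors there thus cover fewer genes. Of the alternative values of 327 single genes, 759 no longer passed and 201 newly passed. A turn of direction was counted only for the 74 called genes, and it occurred in 0 of their values.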
